A study of Mus musculus with 24 samples.

Results

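The guanylate-binding proteins are large GTPases that interferons induce, interferon-gamma (IFN-γ) and type I interferon among them. They bind to the membranes of vacuoles that hold intracellular pathogens and to bacteria in the cytosol, and some members help to assemble inflammasomes. Natural killer (NK) cells are a main source of IFN-γ and respond to type I interferon themselves. The family was taken as 9 named genes, Gbp2, Gbp3, Gbp4, Gbp5, Gbp6, Gbp7, Gbp8, Gbp9 and Gbp10, each matched by its symbol in the table of counts. All 9 were among the 45237 genes of the table and all 9 were among the 17097 genes tested.

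The study asked how tumors change NK cells in the spleen, with a tumor that carries MHC-I and a derived line made to be seen by NK cells. Bulk polyA RNA-seq was done on spleen NK cells of wild-type C57BL/6J mice, females aged 7 to 9 weeks unless specified, sorted as live cells positive for NKp46 or NK1.1, which were stained in the same color, and negative for CD3, CD5 and both T cell receptors, among other lineage markers. Tumor cells were injected into the tail vein. RMA is a T lymphoma. RMA-KR is RMA without B2m (knocked out by CRISPR-Cas9) that was transduced with the NKG2D ligand Rae1-β and ZsGreen. RMA-KR was cloned by limiting dilution, so it is 1 clone. The paper describes ZsGreen in both tumors, and its methods include RMA cells given the same lentiviral vector without Rae1-β. The 7 groups were untreated controls (n = 4), RMA early (day 2, n = 3), intermediate (day 4, n = 3) and late (day 9, n = 3), and RMA-KR early (day 2, n = 3), intermediate (day 7, n = 5) and late (day 14, n = 3). Total counts ran from 5138651 to 14863500 per library with a median of 10489204. All 6 comparisons of a tumor group with control used the same 4 control libraries, so their values stand side by side here and are not independent. At the intermediate and late stages the days of RMA and RMA-KR differ, so tumor and day cannot be told apart there. In bulk libraries fewer cells of a type and less RNA per cell cannot be told apart, so a Gbp level is a level of the whole sorted population.

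The libraries carried NK cell transcripts. The 10 NK markers summed to 21473 to 38591 normalized CPM, the genes of the sort markers NKp46 (Ncr1) and NK1.1 (Klrb1c) stood at 1625 and 1304 or more in every library, and Gzma was the most abundant of the list. Transcripts of cells outside the gate were low: Cd3e reached 5.00 and was at 0 in 12 of 24 libraries, and the most abundant genes of the T, B, plasma cell, macrophage and dendritic cell lists were Trbc2 (75.1 to 170.2), Cd22 (up to 46.6), Igkc (up to 134, in RMA-KR late 2), Cd68 (up to 78.0) and Zbtb46 (list sum at most 52.4). The T cell list summed to 114 to 154 in the controls, 105 to 133 in RMA intermediate and 144 to 231 in RMA late. It was at 103 to 120 in RMA early, 101 to 168 in RMA-KR early, 118 to 174 in RMA-KR intermediate and 131 to 156 in RMA-KR late. The macrophage and monocyte list differed between groups, at up to 21.8 in the controls, 40.1 to 60.0 in RMA late and 39.6 to 81.9 in RMA-KR late, the late groups in which Gbp3, Gbp6, Gbp9 and Gbp10 lay above all controls, but at 17.1 to 22.0 in RMA intermediate, where these 4 did so as well, and at 32.2 to 35.9 in RMA-KR early and 7.34 to 42.2 in RMA early, where they did not. In RMA-KR intermediate the macrophage and monocyte list was at 16.4 to 31.2, and there Gbp6 and Gbp10 but not Gbp3 and Gbp9 lay above all controls. The granulocyte and red blood cell lists summed to at most 17.2 and 3.83. Of the endothelium list only Pecam1, which leukocytes also express, was abundant (44.3 to 440.4; Cdh5 at 0 in 15 libraries). Among all these marker genes only Pecam1 was called in any comparison: it was higher than control in RMA intermediate (log2 fold change 1.08), RMA late (1.04) and RMA-KR late (1.69) and higher in RMA late than in RMA early (1.48). Whether these levels bear on the Gbp levels was not tested.

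Control 4 and RMA-KR intermediate 3, 4 and 5 stood apart from the other 20 libraries. The 12 immediate early and stress genes, such as Fos and Junb, summed to 1277, 1230, 1369 and 1255 normalized CPM in these 4 libraries and to 4335 to 9835 in the others, and these 4 held 24621 to 27820 detected genes beside 15263 to 24234 in the others. The list also lay lower in RMA intermediate (4732 to 5117) and RMA late (4335 to 5614) than in controls 1 to 3 (7062 to 8548). Of its 11 genes tested, Fosb was called lower in RMA late than in RMA early (-2.76) and Egr1 higher in RMA-KR late than in control (1.84). The labels give no batch, and whether these 4 libraries were handled apart was not tested. Gbp results were also computed without them, an alternative chosen after seeing the data. The plot of this sum against the Gbp levels shows all 24 libraries.

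**Figure D1:**
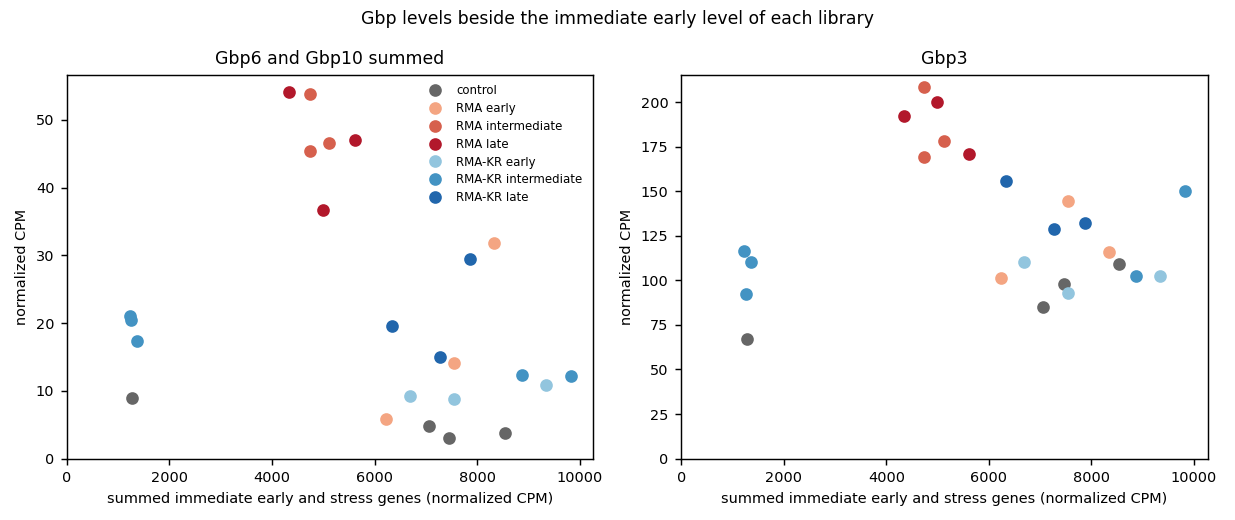
Summed immediate early and stress genes against the summed Gbp6 and Gbp10 level and against Gbp3, 1 point per library, normalized CPM.

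The family lies in 2 clusters. On chromosome 3, on the + strand, stand Gbp5 (chr3:142493978-142522344), Gbp7 (chr3:142530342-142550149), Gbp3 (chr3:142560026-142573209) and Gbp2 (chr3:142620602-142638008). On chromosome 5, on the - strand, stand Gbp8 (chr5:105014150-105139540), Gbp9 (chr5:105077630-105139539), Gbp4 (chr5:105115767-105139586), Gbp10 (chr5:105215699-105239533) and Gbp6 (chr5:105270702-105293698), all in GRCm38. Close paralogs share sequence, and the 50-base reads cannot separate what they share. Of all 50-base windows in their transcripts, 84.1% of Gbp10 and 70.7% of Gbp6 also occur in another gene, and 2801 windows occur in both. The annotated gene Gm43302 (not analysed here) overlaps the exons of Gbp6 and Gbp10. For the other 7 members the shared part was 1.44% (Gbp5) to 18.1% (Gbp8), so their counts are their own to a larger degree. The paper names htseq-count in union mode and does not state a strand setting or the handling of reads that map to several places. How reads in shared windows were counted was not tested, so the values of Gbp6 and Gbp10 are also given as 1 sum.

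**Figure D2:**
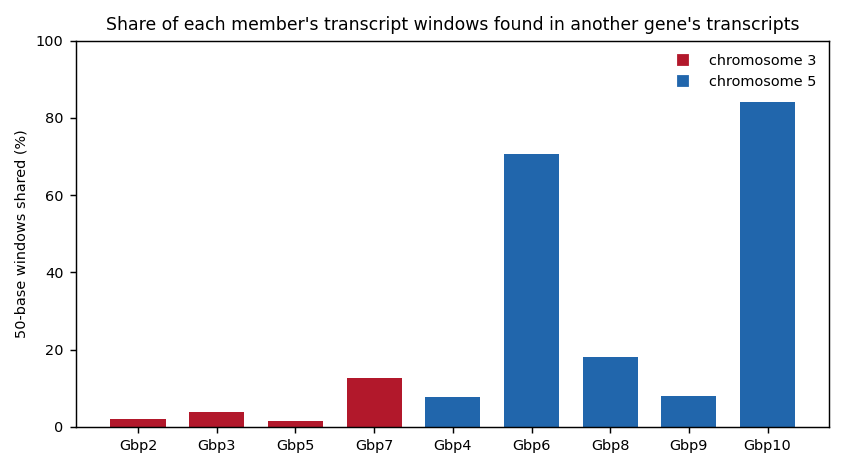
Share of the 50-base windows of each member's transcripts that also occur in another gene, colored by chromosome.

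Promoters of the chromosome 3 members are shown because Gbp3 was called in RMA while its neighbors Gbp7, Gbp5 and Gbp2 were not. Entries of the RefSeq promoter table (GRCm38.p6, 250 bases before to 50 after the start, all on the + strand) matched 4 of 9 members. They cover chr3:142559794-142560093 for the first start of Gbp3, chr3:142530086-142530385 for Gbp7, chr3:142496684-142496983 for Gbp5 and chr3:142620413-142620712 for Gbp2. Capitals mark matches to GAAA, any 2 bases and GAAA again, the repeat of interferon-stimulated promoters, searched on both strands, and to TTCNNNGAA, a palindrome of cytokine-activated promoters, which reads the same on both.
Gbp3 start 1: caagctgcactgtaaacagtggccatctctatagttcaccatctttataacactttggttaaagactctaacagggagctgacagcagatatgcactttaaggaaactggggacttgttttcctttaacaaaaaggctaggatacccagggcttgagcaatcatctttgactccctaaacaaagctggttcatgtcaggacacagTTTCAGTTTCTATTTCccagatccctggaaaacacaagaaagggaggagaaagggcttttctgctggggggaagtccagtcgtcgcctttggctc
Gbp7: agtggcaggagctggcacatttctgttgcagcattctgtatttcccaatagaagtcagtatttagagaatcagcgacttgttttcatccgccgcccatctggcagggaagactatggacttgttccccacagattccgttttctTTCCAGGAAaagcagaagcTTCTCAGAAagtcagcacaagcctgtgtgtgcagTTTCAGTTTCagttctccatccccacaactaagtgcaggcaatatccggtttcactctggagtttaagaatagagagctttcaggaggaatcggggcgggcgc
Gbp5: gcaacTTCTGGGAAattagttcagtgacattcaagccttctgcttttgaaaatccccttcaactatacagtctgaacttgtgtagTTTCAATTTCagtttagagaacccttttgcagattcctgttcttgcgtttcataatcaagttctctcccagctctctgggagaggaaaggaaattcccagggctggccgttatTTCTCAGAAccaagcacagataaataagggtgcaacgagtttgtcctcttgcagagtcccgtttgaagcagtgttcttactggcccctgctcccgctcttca
Gbp2: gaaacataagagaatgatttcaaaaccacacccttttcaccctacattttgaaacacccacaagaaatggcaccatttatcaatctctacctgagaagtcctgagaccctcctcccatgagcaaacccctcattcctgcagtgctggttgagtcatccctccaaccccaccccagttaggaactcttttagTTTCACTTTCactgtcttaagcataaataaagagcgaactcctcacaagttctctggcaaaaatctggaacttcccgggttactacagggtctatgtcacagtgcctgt
The repeat occurred 2 times in Gbp3, in overlapping matches that read as 1 run of capitals, and 1 time each in Gbp7, Gbp5 and Gbp2. The palindrome occurred 2 times each in Gbp7 and Gbp5. A second start of Gbp3 (chr3:142560106-142560405) held neither. Of 32851 promoters of this length, 3.44% (1131) hold the repeat, 8.3% (2726) the palindrome and 0.454% (149) both. A match describes the letters only.

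Gbp3 was at 85.2, 98.0, 109 and 67.2 normalized CPM in the 4 controls, 101, 116 and 144 in RMA early, 209, 169 and 178 in RMA intermediate and 200.02, 192 and 171 in RMA late. Every RMA intermediate and late library lay above every control and every RMA early library. With RMA-KR it was at 103, 110.2 and 93.1 (early), 150.1, 103, 116, 110.4 and 92.4 (intermediate) and 129, 156 and 132 (late). The late RMA-KR libraries lay above all controls, while the early and intermediate ones overlapped them. Gbp3 rose in RMA intermediate (log2 fold change 1.05, SE 0.185, adjusted p 0.00281) and in RMA late (1.06, SE 0.185, adjusted p 0.00206), with 3 of 3 libraries above all controls each time. Adjusted p ran from 2.68e-06 to 0.0213 over 15 alternatives for the intermediate and from 8.14e-07 to 0.0167 over 15 for the late stage, but the fold stood close to 2. It was called in 9 of the 15 and in 12 of the 15: at the intermediate stage the log2 fold change was 0.99 without control 1, 0.89 without control 4 and 0.99 without RMA intermediate 1, and at the late stage it was 0.92 without control 4. The call was lost at both stages with the replicate block (0.97 and 0.99) and without the 4 libraries of low immediate early level (0.94 and 0.95), and at the intermediate stage with the DESeq2 prior (0.99). Gbp3 therefore moved in the same direction in these alternatives, by 0.89 to 1.14 and by 0.92 to 1.16, on either side of the 2-fold line.

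The other chromosome 3 members were not called in any of the 11 comparisons by edgeR. Gbp7, whose protein takes part in the assembly of NADPH oxidase, was at 167 to 429 normalized CPM over the 24 libraries, with group means from 244 (control) to 357 (RMA-KR early). Every RMA-KR early library lay above every control (0.55, SE 0.206, adjusted p 0.465). Gbp2, whose protein gathers at pathogen vacuoles, was at 67.9 to 142, with group means from 90.5 (RMA early) to 123 (RMA late). Its means therefore lay close together, and every RMA early library lay below every RMA-KR early library (-0.33, adjusted p 0.609; 7.21% of all genes did so). Gbp5, whose protein promotes assembly of the NLRP3 inflammasome, was at up to 44.6. Its lowest value came from 3 counts in RMA early 1, beside 8.87 and 25.0 in the other RMA early libraries, so that group spread over much of the range of the family member.

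The members that differed by the largest folds were the paralogs Gbp6 and Gbp10 on chromosome 5. Gbp6 was at 2.96, 2.99, 3.69 and 6.07 normalized CPM in the controls, 3.87, 23.0 and 9.25 in RMA early, 22.7, 28.0 and 25.4 in RMA intermediate and 24.3, 33.9 and 25.0 in RMA late. All intermediate and late RMA libraries lay above all controls, and RMA early was split, with library 2 at the level of the later groups and library 1 among the controls. With RMA-KR it was at 4.91, 5.74 and 6.92 (early), 8.68, 7.65, 11.0, 9.67 and 16.4 (intermediate) and 8.72, 9.56 and 18.9 (late). The intermediate and late RMA-KR libraries lay above all controls and below every RMA library of the same stage. Gbp6 rose in RMA intermediate (log2 fold change 2.68, SE 0.524, adjusted p 0.00576) and RMA late (2.81, SE 0.526, adjusted p 0.00363), in 3 of 3 libraries each, and it was called in 15 of 15 alternatives both times (2.09 to 2.99, adjusted p 4.66e-06 to 0.0301, and up to 3.11, adjusted p 7.82e-07 to 0.0314). This was the call of the family that held in all alternatives run at both stages.

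Gbp10 was at 1.85, 0, 0.105 and 2.86 normalized CPM in the controls, 2.00, 8.87 and 4.89 in RMA early, 22.8, 25.9 and 21.2 in RMA intermediate and 12.5, 20.3 and 22.0 in RMA late. The controls rested on 10, 0, 1 and 32 counts, and all intermediate and late RMA libraries lay above them. With RMA-KR it was at 5.94, 3.45 and 1.93 (early), 3.47, 4.68, 9.98, 7.62 and 4.03 (intermediate) and 6.32, 9.98 and 10.5 (late), again with the intermediate and late libraries above all controls. Gbp10 rose in RMA intermediate (4.27, SE 0.938, adjusted p 0.0128) and RMA late (3.92, SE 0.926, adjusted p 0.0197), in 3 of 3 libraries each. It was called in 14 of 14 alternatives at the intermediate stage (2.42 to 5.28, adjusted p 6.27e-06 to 0.0454) and in 10 of 14 at the late stage (2.19 to 4.92, adjusted p 3.62e-05 to 0.0764). The late call was lost without control 1 (adjusted p 0.0509), control 3 (0.0579) or RMA late 2 (0.0764), and with only the 2 groups compared in the fit (0.0526). The size of its fold thus depended on a control level near the detection floor.

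The counts of Gbp6 and Gbp10 were also summed, a choice made after seeing the data, so that a read counted for either paralog enters 1 value. Reads of windows shared with Gm43302 (3961 windows of Gbp6) or with other Gbp genes are not settled by this. The sum was at 4.80, 2.99, 3.79 and 8.93 normalized CPM in the controls, 45.4, 53.8 and 46.7 in RMA intermediate, 36.7, 54.1 and 47.0 in RMA late, 12.1, 12.3, 20.99, 17.3 and 20.4 in RMA-KR intermediate and 15.0, 19.5 and 29.4 in RMA-KR late. These 4 groups all lay above the controls, and both RMA-KR groups lay below both RMA groups. On day 2 the sum was at 5.87, 31.9 and 14.1 with RMA and at 10.9, 9.19 and 8.85 with RMA-KR. With each tumor 2 of 3 libraries lay above every control, so both groups overlapped the controls. The Gbp6 and Gbp10 sum was called higher than control in RMA intermediate (3.24, SE 0.472, adjusted p 0.000406), RMA late (3.16, SE 0.470, adjusted p 0.000583) and RMA-KR late (2.05, SE 0.458, adjusted p 0.0242), in 3 of 3 libraries each. It was not called in RMA early (1.75, adjusted p 0.450), RMA-KR early (0.90, adjusted p 0.588) or RMA-KR intermediate (1.69, adjusted p 0.438), nor between RMA and RMA-KR at the intermediate (1.55, adjusted p 0.108) or late stage (1.11, adjusted p 0.655).

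The other members of the chromosome 5 cluster were not called by edgeR in any comparison. Gbp9 was at 95.9, 94.7, 105 and 77.6 normalized CPM in the controls, 141, 161 and 139 in RMA intermediate, 149, 175 and 233 in RMA late and 194, 114 and 212 in RMA-KR late. All libraries of these 3 tumor groups lay above all controls. The log2 fold changes were 0.66 (SE 0.288, adjusted p 0.283), 0.99 (SE 0.288, adjusted p 0.0678) and 0.89 (SE 0.288, adjusted p 0.161). Gbp9 in RMA late was called in 1 of 15 alternatives, with only the 2 groups compared (1.04, adjusted p 0.0137; range 0.0137 to 0.240). In the remaining groups Gbp9 was at 56.5 to 146 (RMA early), 95.9 to 147 (RMA-KR early) and 64.8 to 152 (RMA-KR intermediate), each overlapping the controls. Gbp4 was at 183 to 446 over all libraries, with group means from 246 (control) to 373 (RMA early), and Gbp8 at 55.3 to 173, with means from 83.6 (RMA-KR late) to 124 (RMA-KR early). Neither Gbp4 nor Gbp8 had a comparison in which all libraries of 1 group lay above or below all of the other.

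**Figure D3:**
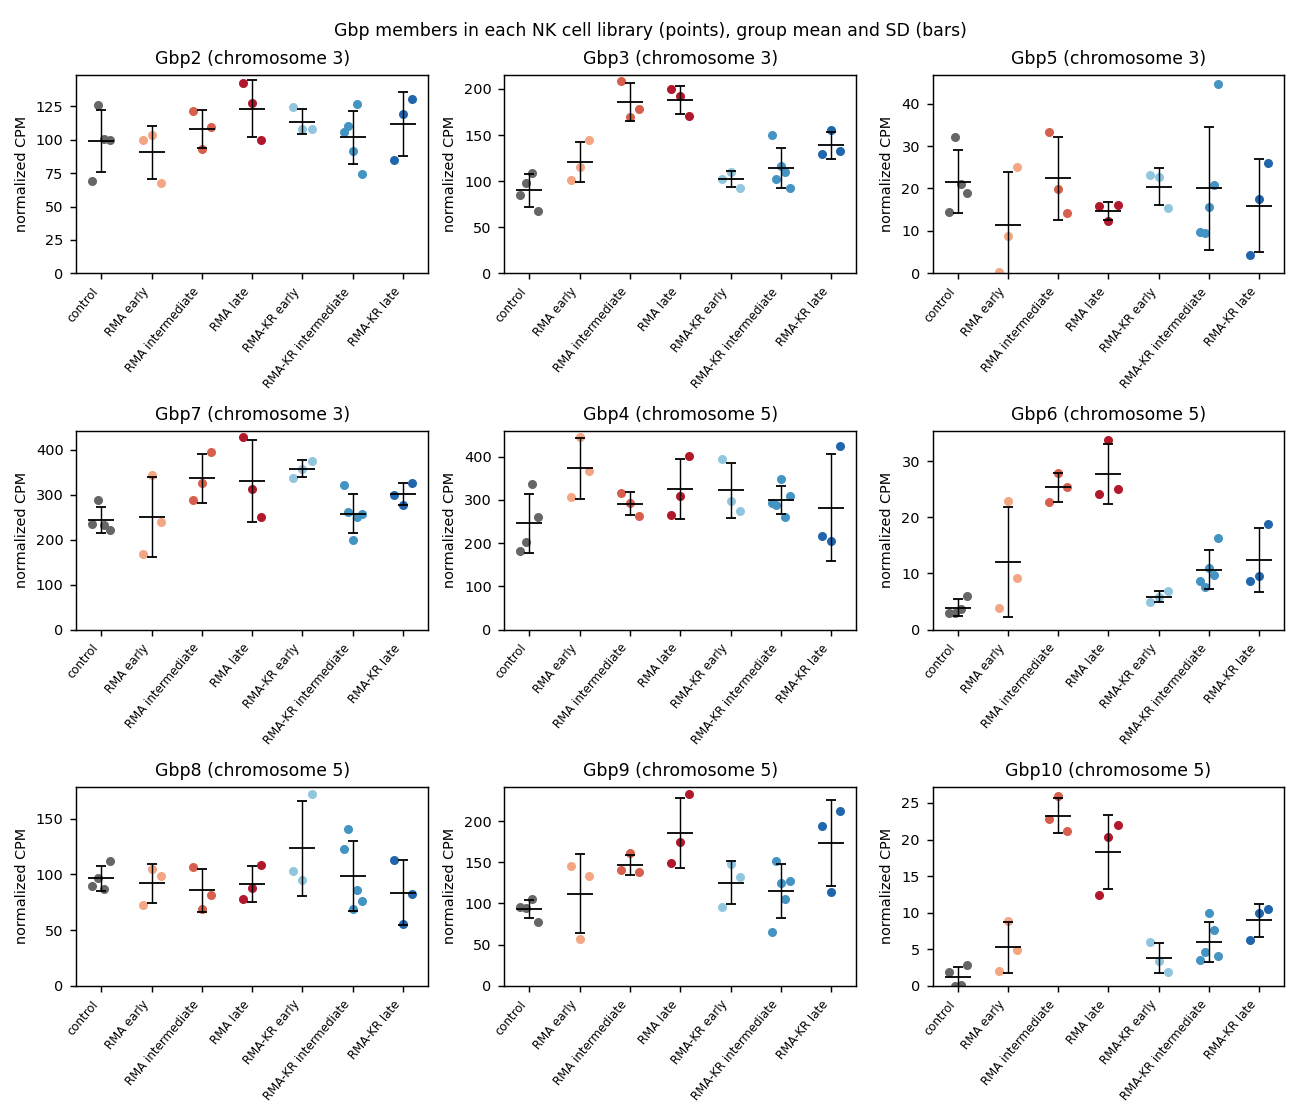
Each member's level in every library, with group mean and SD, in normalized CPM.

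Levels of different members were set side by side per kilobase of windows not shared with another gene, with 1 window starting at each base. In the controls the order was Gbp7 (49.8 ± 6.09 normalized CPM per kilobase, mean and SD), Gbp2 (40.2 ± 9.51), Gbp4 (34.8 ± 9.72), Gbp8 (34.3 ± 4.06), Gbp3 (27.8 ± 5.56), Gbp9 (19.7 ± 2.40), Gbp5 (3.23 ± 1.12), Gbp6 (2.19 ± 0.821) and Gbp10 (1.97 ± 2.28). Within Gbp2, Gbp4 and Gbp8, and within Gbp5, Gbp6 and Gbp10, neighbors in this order differed by less than the larger of their SDs. In RMA intermediate Gbp7 stood at rank 1 (68.6), Gbp3 at rank 2 (57.4 ± 6.35) and Gbp10 at rank 5 (38.2 ± 3.92), while Gbp6 was at 14.2 and Gbp5 last (3.35). In RMA late Gbp3 was again at rank 2 (58.1) behind Gbp7 (67.4), and Gbp10 was at 29.9. There Gbp3 differed from Gbp7 (SD 18.6) and from Gbp2 at rank 3 (50.1 ± 8.79) by less than the larger SD of each pair. So did Gbp10 from Gbp4 at rank 4 (41.2 ± 3.74) in RMA intermediate. The scale for Gbp10 rests on 609 windows and for Gbp6 on 1789, and it overstates both if reads from shared windows were counted for them.

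**Figure D4:**
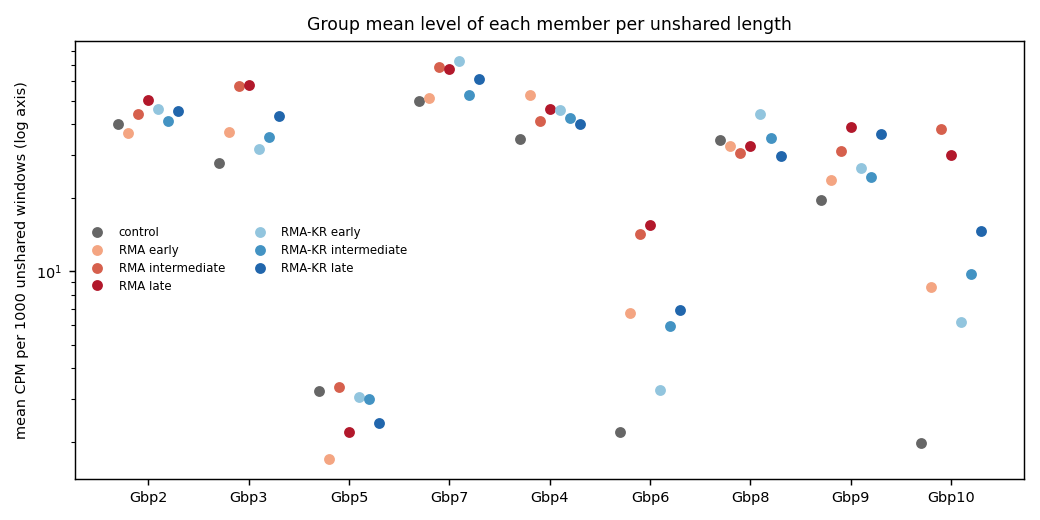
Mean level of each member per kilobase of unshared windows in each group, log axis.

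With RMA, family members were called against control on days 4 and 9 but not on day 2. In RMA early 0 of 9 members were called by edgeR, beside 0 of all 17097 genes tested (0%); 4 members and 1204 genes had an unadjusted p under 0.05, and DESeq2 called 0 members with and without its fold change prior (of all genes, 11 higher and 51 lower by default). The largest of these early values were those of Gbp10 (2.13, SE 0.885, adjusted p 0.704) and Gbp6 (1.61, SE 0.514, adjusted p 0.542). In 0 of 9 members did every early library lie above every control, beside 2.12% of all genes. In RMA intermediate 3 of 9 members were called, all higher (Gbp3, Gbp6 and Gbp10), beside 1.65% of all genes called in either direction; in 4 of 9 (these and Gbp9) every library lay above every control, beside 10.2% of all genes. In RMA late the same 3 members were called, beside 1.79%, and the same 4 of 9 lay above every control, beside 9.24%. The median log2 fold change of the 9 members was 0.26, 0.46 and 0.44 at the 3 stages, beside -0.06, -0.29 and -0.18 for all genes tested, with 6, 8 and 7 members positive. The all-gene medians depend on the genes and groups fitted: with at least 10 counts in every library those of RMA intermediate and late were -0.0443 and -0.0476 (members 0.43 and 0.42), with only the 2 groups compared -0.0646 and -0.0443 (members 0.48 and 0.49), and with no filter -0.48 and -0.11 (members 0.47 and 0.44). So do the shares called: with only the 2 groups compared 475 genes were higher and 287 lower of 12191 in RMA intermediate. Beyond the 3 called members, Gbp9 (0.66 and 0.99) and Gbp7 (0.46 and 0.44) had an unadjusted p under 0.05 in RMA intermediate and late, with all 3 libraries of Gbp9 and 2 of 3 of Gbp7 above every control. Among all genes tested 2726 and 2398 had an unadjusted p under 0.05 in RMA intermediate and late. The lowest values at these stages were those of Gbp8 (-0.17 and -0.08) and Gbp5 (0.05 and -0.55).

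With RMA-KR, 0 members were called against control at any stage by edgeR as applied to the 17097 genes tested in all 24 libraries. In RMA-KR early this stood beside 0.0819% of all genes, with 1 member at an unadjusted p under 0.05 (2 by DESeq2, 0 called); every library lay above every control for 1 of 9 members (Gbp7), beside 4.5% of all genes. In RMA-KR intermediate 0.0175% of all genes were called, 3 members had an unadjusted p under 0.05 by both tools and DESeq2 called 0; 2 of 9 members (Gbp6 and Gbp10) lay above every control, beside 1.33%. Here Gbp6 was at 1.44 (SE 0.469, adjusted p 0.664) and Gbp10 at 2.30 (SE 0.826, adjusted p 0.698). In RMA-KR late 0.983% of all genes were called, and 4 members had an unadjusted p under 0.05 by both tools. By edgeR 1490, 1011 and 2430 of all 17097 genes had one in RMA-KR early, intermediate and late. There 4 of 9 members (Gbp3, Gbp6, Gbp9 and Gbp10) lay above every control, beside 5.88% of all genes, which are the 4 that did so in RMA late. Their log2 fold changes were 0.63 (SE 0.185, adjusted p 0.110) for Gbp3, 1.65 (SE 0.514, adjusted p 0.142) for Gbp6, 0.89 (adjusted p 0.161) for Gbp9 and 2.89 (SE 0.897, adjusted p 0.141) for Gbp10. DESeq2 called Gbp6 (1.67, adjusted p 0.0185) and Gbp10 (2.91, adjusted p 0.00797) in RMA-KR late. There edgeR called Gbp6 with at least 10 counts required in every library (1.64, adjusted p 0.0442) and the sum of both genes. Over the alternatives the adjusted p ran from 0.0149 to 0.503 for Gbp6 and from 0.00797 to 0.337 for Gbp10. The median of the 9 members was 0.39, 0.29 and 0.30 from early to late, beside 0.00, 0.01 and -0.18 for all genes, with 8, 8 and 7 members positive.

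**Figure D5:**
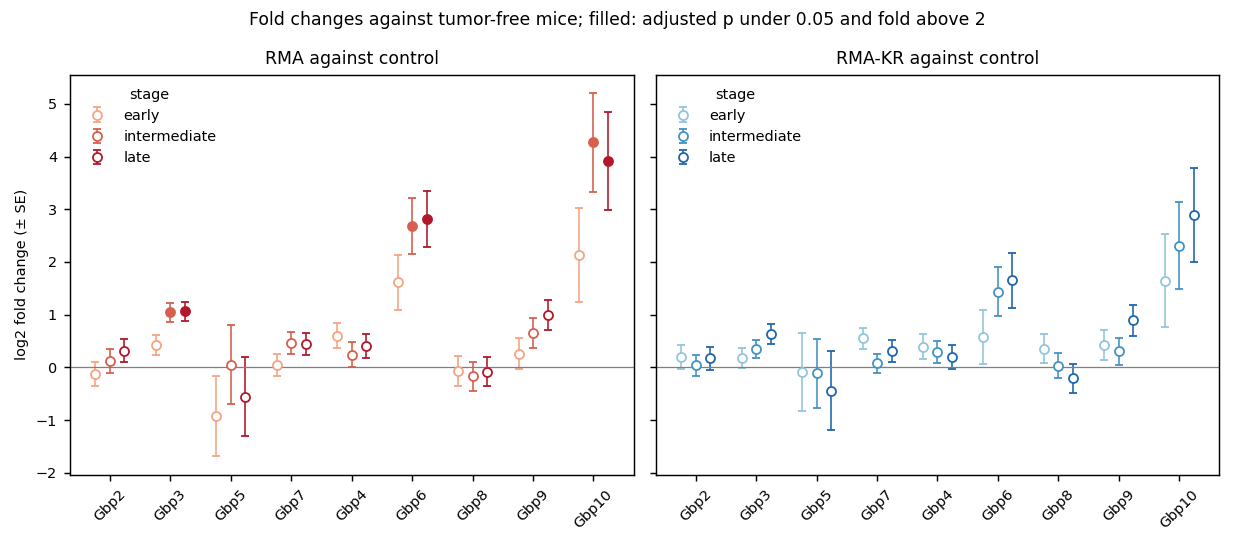
Log2 fold changes of the 9 members against control at each stage, RMA and RMA-KR side by side, with SE; filled points were called.

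RMA and RMA-KR were also compared directly, and edgeR and DESeq2 called 0 of 9 members at each stage. On day 2, the stage at which the days match, 0.304% of all genes were called, 1 member had an unadjusted p under 0.05 (2 by DESeq2), and every RMA library lay above every RMA-KR library for 0 of 9 members, beside 5.56% of all genes, and below for 1 of 9 (Gbp2), beside 7.21%. The members' median was -0.16 beside -0.03 for all genes, and the value with the smallest p was that of Gbp7 (-0.51, SE 0.222, adjusted p 0.363). Among all genes edgeR gave an unadjusted p under 0.05 to 2101 on day 2 and to 2427 at the intermediate stage. At the intermediate stage 0.503% of all genes were called, 3 members had an unadjusted p under 0.05 by both tools, and 3 of 9 members (Gbp3, Gbp6 and Gbp10) lay higher in every RMA library, beside 5.82%. Gbp3 was at 0.70 (SE 0.175, adjusted p 0.0712; 0.54 to 0.81 and 0.00955 to 0.448 over the alternatives), Gbp6 at 1.25 (SE 0.477, adjusted p 0.315) and Gbp10 at 1.97 (SE 0.801, adjusted p 0.344). At the late stage 0% of all genes were called (1249 had an unadjusted p under 0.05; DESeq2 called 19 higher and 24 lower), 2 members had one by both tools, and the same 3 of 9 lay higher in every RMA library, beside 5.18%. Late values were 0.43 (adjusted p 0.655) for Gbp3, 1.16 (adjusted p 0.655) for Gbp6 and 1.03 (adjusted p 0.804) for Gbp10. The medians were 0.35 beside -0.23 and 0.15 beside 0.06. At the intermediate stage the all-gene value was -0.62 with no filter and -0.0399 with at least 10 counts in every library, and 0 without the 4 libraries. No direct test of Gbp3, Gbp6 or Gbp10 passed the adjusted p and the 2-fold limit together, so a difference between the 2 tumors is not shown by that rule. For Gbp3 at the intermediate stage, whether the adjusted p alone passed depended on the fit, and the fold stayed below 2.

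For late against early within each tumor, the stage pair compared, edgeR and DESeq2 called 0 of 9 members. From RMA early to late 2.01% of all genes were called, 3 members had an unadjusted p under 0.05 (4 by DESeq2), and 4 of 9 members (Gbp3, Gbp6, Gbp9 and Gbp10) were higher in every late library, beside 11.5% of all genes. The values were 0.64 (SE 0.200, adjusted p 0.0852) for Gbp3, 1.20 (SE 0.552, adjusted p 0.269) for Gbp6, 0.73 (SE 0.312, adjusted p 0.232) for Gbp9 and 1.79 (SE 0.943, adjusted p 0.331) for Gbp10. From RMA-KR early to late 0.322% of all genes were called, 1 member had an unadjusted p under 0.05 (2 by DESeq2), and 3 of 9 (Gbp3, Gbp6 and Gbp10) were higher in every late library, beside 7.24%. Gbp7 was lower in every late RMA-KR library (1 of 9 members, beside 8.28% of all genes), and Gbp3 was at 0.45 (SE 0.199, adjusted p 0.309). The share of all genes depends on the fit: with only the 2 groups compared 1 of 11493 genes was called from RMA early to late, with 1 member at an unadjusted p under 0.05. The members' medians were 0.45 for RMA and -0.03 for RMA-KR, beside -0.05 and -0.10 for all genes, with 7 and 4 members positive. Among all genes edgeR gave an unadjusted p under 0.05 to 2936 for RMA and to 2559 for RMA-KR.

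Across the 24 libraries the members did not all move together. The Pearson correlation of log2 CPM was 0.843 for Gbp6 and Gbp10, 0.740 for Gbp3 and Gbp6 and 0.659 for Gbp3 and Gbp10. These points share the 7 groups, and the paralogs also share windows. With the group means removed the values were 0.426, -0.195 and -0.351, so the ties of Gbp3 to Gbp6 and Gbp10 went with the groups. The highest values within groups were 0.604 for Gbp5 and Gbp6, 0.508 for Gbp4 and Gbp6 and 0.443 for Gbp6 and Gbp7. The lowest were -0.552 for Gbp7 and Gbp9, -0.359 for Gbp2 and Gbp9 and -0.351 for Gbp3 and Gbp10. The mean pattern of the 9 members followed some of them little: their own correlations with it ran from 0.111 (Gbp8) and 0.349 (Gbp5) to 0.831 (Gbp6). Outside the family the 8 genes most correlated with this mean pattern were Ncapg (0.806), Ifit3 (0.804), Evi2a (0.795), Sgo2a (0.793), Oas1a (0.791), Psmb7 (0.787), Ms4a4c (0.787) and Lgals9 (0.783). For these 8 genes no value with the group means removed was computed.

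Other GTPases induced by interferon were read beside the family. Of 4 other Gbp genes listed, 2 were in the table (Gbp2b and Gbp11), at 0 to 2.98 and 0 to 4.24 normalized CPM; 1 was tested and edgeR called 0 in all comparisons, with 0 at an unadjusted p under 0.05. Of 12 immunity-related GTPases tested edgeR called 0 in every comparison; in RMA intermediate 4 had an unadjusted p under 0.05 (median 0.60; DESeq2 called 1, or 0 with its prior) and in RMA late 1 (median 0.56; DESeq2 0), beside medians of 0.46 and 0.44 for the Gbp members and -0.29 and -0.18 for all genes. In the other comparisons 0 to 3 of them had an unadjusted p under 0.05, and DESeq2 called 0 except 1 from RMA-KR early to late. Over the alternatives their calls reached 2 in RMA intermediate against control and 1 from early to late in RMA and in RMA-KR. Of the 3 other large GTPases, Mx genes among them, edgeR called 0, with 1 at an unadjusted p under 0.05 in RMA intermediate (median 1.44 beside -0.29 for all genes; DESeq2 0), and up to 1 call over the alternatives in RMA intermediate and in RMA late against control. Partners of the Gbp proteins in inflammasomes and ATG8 conjugation gave 1 call among 14 tested (list median 0.31 beside -0.05 for all genes, of which 2.01% were called), Pycard from RMA early to late (1.08, SE 0.208, adjusted p 0.00649, range 0.000144 to 0.114). It was called in 3 of 7 other fits. It was lost with DESeq2 size factors (log2 fold change 0.99), DESeq2 by default (0.99) and with its prior (0.95) and with only the 2 groups compared (adjusted p 0.114), and also lost without RMA early 1 (0.0531) or RMA late 2 (0.0552). In the same comparison DESeq2 called 1 partner, which was not Pycard, and the alternatives called 0 to 2. Elsewhere edgeR called 0 of these partners, with 0 to 3 at an unadjusted p under 0.05, and DESeq2 called 0 except 1 in RMA late against control.

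Beside the family, the 12 tested genes of the IFN-γ pathway list had a median of 0.14 in RMA intermediate and 0.29 in RMA late, beside -0.29 and -0.18 for all genes, the stages at which Gbp3, Gbp6 and Gbp10 were called. Irf8 was called higher at both (1.12, adjusted p 0.00678, range 2.99e-10 to 0.0432, and 1.01, adjusted p 0.0119, range 2.94e-08 to 0.0718). Its late call was lost without control 1 (adjusted p 0.0583), control 2 (log2 fold change 1.00), control 4 (adjusted p 0.0718) or RMA late 2 (adjusted p 0.0706), and its intermediate call without control 4 (log2 fold change 0.95). The late call was also lost, by the fold, with the replicate block (0.92), at least 10 counts in every library (0.99), DESeq2 with its prior (0.94) and the 4 libraries left out (0.89). Of 11 MHC-I processing genes, which like the Gbp genes respond to interferons, Tap1 and Psme2 were called in RMA intermediate (list median 0.66 beside -0.29 for all genes; 0 to 5 calls over the alternatives), Psme2 in RMA late (0.72 beside -0.18; 0 to 7) and Psmb8 and Psme2 from RMA early to late (0.63 beside -0.05; 0 to 6), beside 1.65%, 1.79% and 2.01% of all genes called. There were 0 calls elsewhere by edgeR or DESeq2 (up to 1 over the alternatives for RMA intermediate against RMA-KR intermediate) and 1 to 7 genes at an unadjusted p under 0.05 except 0 in RMA early against control. In 7 other fits Tap1 was called in 3, Psme2 in 5, 7 and 1 for these comparisons in turn and Psmb8 in 2, and both DESeq2 fits called 0 of the list from RMA early to late. Each of these 5 calls was also lost without at least 1 library: Tap1 without control 1 (log2 fold change 0.91), 2 (0.98) or 4 (0.99), Psme2 without control 1 (adjusted p 0.0568) or RMA intermediate 1 (0.0577), without control 1 (log2 fold change 1.00) or RMA late 2 (adjusted p 0.0670), and without RMA early 1 (adjusted p 0.112) or 2 (0.0560) or RMA late 1 (0.0920) or 2 (0.189), and Psmb8 without RMA early 1 (log2 fold change 0.89) or RMA late 2 (0.98).

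The type I interferon list of 25 genes gave 6 calls in RMA intermediate (median 1.92; 5 to 15 over the alternatives) and 7 in RMA late (1.56; 4 to 12), all higher and at the stages of the Gbp calls, beside 1.65% and 1.79% of all genes called and all-gene medians of -0.29 and -0.18. In RMA intermediate these were Usp18 (3.01), Oas1a (2.23), Bst2 (2.09), Rtp4 (1.98) and Xaf1 (1.40), called in every alternative, and Zbp1 (1.12), lost without any 1 of the 4 controls or 3 tumor libraries (adjusted p 0.0517 to 0.122) or without the 4 libraries of low immediate early level (0.0514). In RMA late Usp18 (2.96), Oas1a (2.15), Rtp4 (1.91) and Xaf1 (1.58) were called in every alternative. Bst2 (1.78) was lost without RMA late 2 (0.0947). Ifit3 (2.58) and Zbp1 (1.02) were lost without control 1, 2, 3 or 4 or RMA late 1 or 2 (0.0806 to 0.231 and 0.0729 to 0.328), with the replicate block (0.103 and 0.0557) and without the 4 libraries (0.0802 and 0.0779), and Zbp1 also with the DESeq2 prior (log2 fold change 0.93). In RMA-KR late edgeR called 1 gene, Usp18 (1.95), beside 0.983% of all genes and 0 of the 9 Gbp members. DESeq2 called 2 genes of the list and 2 Gbp members there. The list median was 0.69 beside -0.18 for all genes, with 0 to 4 calls over the alternatives. This call of Usp18 was lost without control 1 (0.0522), 2 (0.0586), 4 (0.0577) or RMA-KR late 3 (0.0550) or without the 4 libraries (0.0506). The list gave 3 calls for RMA intermediate against RMA-KR intermediate (median 1.28 beside -0.23 for all genes; 1 to 10 over the alternatives) and 5 for RMA late against early (1.16 beside -0.05; 0 to 7), beside 0.503% and 2.01% of all genes, where 0 Gbp members were called. The first were Usp18 (1.99), called without any 1 library, Bst2 (1.52), lost without each of the 8 libraries (0.0617 to 0.164), and Xaf1 (1.28), lost without RMA intermediate 1, 2 or 3 or RMA-KR intermediate 1 or 4 (0.0511 to 0.0728). The others were Xaf1 (1.90), called without any 1 library, Ifi44 (4.73), lost without RMA late 2 (0.0551), Usp18 (2.04), lost without RMA early 2 (0.0559) or RMA late 2 (0.0830), Oas1a (1.95), lost without RMA early 1 (0.0915) or RMA late 1 (0.0661) or 2 (0.0981), and Zbp1 (1.09), lost without RMA early 1 or 2 or RMA late 1 or 2 (0.0889 to 0.286). With only the 2 groups compared all 5 of these calls were lost (Xaf1 0.114, Ifi44 0.148, Usp18 0.127, Oas1a 0.195 and Zbp1 0.227), as was that of Usp18 in RMA-KR late (0.0812). The fold of Ifi44 rests on a low early level: it was at 0 to 6.39 normalized CPM in RMA early and 52.2 to 108 in RMA late. In the controls Ifi44 was at 4.44 to 19.3. Of 7 other fits, Zbp1 from RMA early to late was called in 3, Bst2 between the tumors in 4, and Ifit3 in RMA late in 5 of 6. In the other 6 comparisons edgeR called 0 of the 25, with 2 to 7 at an unadjusted p under 0.05 and 0 by DESeq2 at its defaults except 1 in RMA early against RMA-KR early and 4 from RMA-KR early to late. Over the alternatives these counts reached 1 in RMA early and in RMA-KR intermediate against control and in RMA early and RMA late against RMA-KR, 5 from RMA-KR early to late and 0 in RMA-KR early against control. Whether interferon signals raised the Gbp transcripts in these NK cells was not tested.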

How the data were processed

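Bulk polyA RNA-seq (Lexogen kit) was read from 24 spleen NK cell libraries in 7 groups, taken from the labels. The authors deposited raw counts of reads per gene in each library. The submitters' processing notes name cutadapt 1.10, Bowtie2 2.2.8, STAR 2.5.3a and HTSeq 0.6.1p1 on mm10, and DESeq2 1.16.1 for their own tests. Their fold changes, p values and adjusted p values hold their findings and were not used here, nor were 48 other columns, 2 for each library. The members, the gene lists and the rule for named genes were set before the data were examined, with earlier results of these data known.

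Total counts ran from 5138651 to 14863500. A floor of 3 counts corresponds to 0.208 normalized CPM in the deepest and 0.552 in the shallowest library. Counts were filtered with filterByExpr on the 7 groups (17097 of 45237 genes kept) and tested with edgeR 4.0.16 and limma 3.58.1 in R 4.3.3: TMM scaling, 1 mean per group, glmQLFit (robust) and glmQLFTest, Benjamini-Hochberg adjustment over all genes tested. The common biological coefficient of variation was 0.852. Calls required a fold change above 2 in either direction together with an adjusted p below 0.05. Normalized CPM are counts scaled by the cpm function of edgeR to the TMM library size, and log2 CPM used a prior count of 2. Replicates are separate samples by their labels. In the main fit a p value sets the difference of 2 group means against the spread between samples within groups. That spread was estimated per gene over all 24 libraries, not from the 2 groups alone. The replicate numbers were checked as a possible pairing: of 34 same-number pairs 2 correlated above 0.1 (range -0.118 to 0.202), and in 10 of these a library's best match had its own number. Libraries of a group correlated at 0.810 to 0.964 over 31 pairs. The analysis was tested on simulated data.

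Genes named were the 9 members, the 8 genes most correlated with their mean scaled log2 CPM, the called genes of the lists, and genes noted in the report. Lists were of NK, T, B, plasma, macrophage and monocyte, dendritic, granulocyte, red blood cell, endothelium and immediate early and stress genes, and of other Gbp genes, immunity-related GTPases, other large GTPases, Gbp partners, IFN-γ, MHC-I processing and type I interferon genes. Lists are given as counts and medians beside all genes tested, with no set test; some list genes, and the count of calls in the IFN-γ list, are not reported here. Shared sequence was counted in 50-base windows over GENCODE transcripts, and promoters came from RefSeq (GRCm38.p6). Alternatives were DESeq2 1.42.0 size factors, no filter, at least 10 counts in every library, a replicate block, only the 2 groups compared, DESeq2 with and without its fold change prior, and leaving out each library in turn. After seeing the data, the fit without 4 libraries and the sum of Gbp6 and Gbp10 were added. Figures were drawn with Python 3.11.15 and matplotlib 3.10.9.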

Additional observations from a re-analysis of the deposited data

How the results depend on the processing

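Of 1949 alternative values of 131 log2 fold changes of members and called list genes, 52 had the other sign, 47 of them without 1 library and 5 in other fits. None of these belonged to a fold change called at first; they concern 29 fold changes. The member count per comparison stayed within 1.5 times its first value in all but 3 of 175 alternative counts: in RMA-KR late against control it went from 0 to 1 with at least 10 counts in every library (Gbp6, 1.64, adjusted p 0.0442; fewer genes are tested there), and to 2 with DESeq2 by default and to 2 with its fold change prior (Gbp6 and Gbp10; the cause was not tested). The range of adjusted p over the alternatives there was 0.0149 to 0.503 for Gbp6 and 0.00797 to 0.337 for Gbp10. With the replicate block 2 members were called in RMA intermediate and 2 in RMA late, since Gbp3 stood at 0.97 and 0.99. Without the 4 libraries of low immediate early level, an alternative chosen after seeing the data, 2 were called at each stage as well (Gbp3 at 0.94 and 0.95), while Gbp6 stood at 2.99 and 3.11 and Gbp10 at 5.28 and 4.92. In RMA-KR intermediate, which then holds 2 libraries, edgeR called 0 members (2 at an unadjusted p under 0.05), Gbp6 stood at 1.36, Gbp10 at 2.77, Gbp3 at 0.39, Gbp5 at -1.21 (from -0.11) and Gbp8 at 0.55 (from 0.04). DESeq2 with its prior put Gbp3 at 0.99 in RMA intermediate. With at least 10 counts in every library Gbp5 and Gbp10 were not tested, so 2 members were called at each stage. Leaving out 1 library gave 2 or 3 called members at both stages: 2 without control 1 or 4 or RMA intermediate 1, and 2 without control 1, 3 or 4 or RMA late 2. DESeq2 size factors in place of TMM changed no count of positive members. The sign changes, as the lowest to highest log2 fold change when leaving out 1 library, were: Gbp2 in RMA intermediate against control -0.0397 to 0.26, RMA-KR intermediate against control -0.0971 to 0.17, RMA early against control -0.25 to 0.0737, RMA-KR late against RMA-KR early -0.12 to 0.13, RMA intermediate against RMA-KR intermediate -0.0138 to 0.22, RMA late against RMA-KR late -0.0186 to 0.28. Gbp4 in RMA intermediate against RMA-KR intermediate -0.12 to 0.0544, RMA-KR late against RMA-KR early -0.57 to 0.0177, RMA-KR late against control -0.18 to 0.41. Gbp5 in RMA-KR early against control -0.21 to 0.18 (0.0773 with the replicate block), RMA late against RMA-KR late -0.56 to 0.42 (0.0745 with the replicate block), RMA intermediate against control -0.31 to 0.33, RMA-KR intermediate against control -0.65 to 0.13, RMA late against RMA early -0.19 to 1.66, RMA intermediate against RMA-KR intermediate -0.19 to 0.68, RMA-KR late against RMA-KR early -0.86 to 0.0938. Gbp7 in RMA early against control -0.24 to 0.28, RMA late against RMA-KR late -0.0546 to 0.31, RMA-KR intermediate against control -0.0255 to 0.16. Gbp8 in RMA late against RMA early -0.15 to 0.16 (0.0196 with no filter), RMA-KR intermediate against control -0.13 to 0.14, RMA early against control -0.16 to 0.10 (0.0614 without the 4 libraries), RMA intermediate against control -0.32 to 0.00296, RMA late against control -0.18 to 0.0602 (0.0124 without the 4 libraries), RMA late against RMA-KR late -0.0976 to 0.41, RMA-KR late against control -0.50 to 0.0508. Gbp9 in RMA early against RMA-KR early -0.38 to 0.15, RMA late against RMA-KR late -0.13 to 0.28. Gbp10 in RMA early against RMA-KR early -0.13 to 0.94. The cause of these was not tested. Counts limit Gbp10, which had 0 and 1 counts in controls 2 and 3.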
